A study of Rattus norvegicus with 16 samples.

Results

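The 32 genes described here encode proteins that move, dock and fuse membrane vesicles: Rab GTPases, SNAREs and their recycling factor, calcium sensors, synaptic vesicle proteins, adaptor subunits and tethers. They were taken by gene symbol, through a pattern that matches the names of these families, from the 1176 probes tested. Every member had 1 probe and 1 gene. Transcripts came from a fast muscle on the front of the lower leg, the extensor digitorum longus (EDL), of Brown-Norway rats aged 6 months. The 8 control arrays came from EDL with no denervation named, and the 8 others from EDL denervated for 2 months. How the muscle was denervated, the sex of the rats and whether a control muscle came from the other leg of the same animal were not given in the sources used here. Rats are numbered 1 to 8 in both groups, and each array was taken as 1 rat, so p-values measure the spread between these arrays.

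Vesicles bud with the help of coats and adaptors, travel under the direction of Rab GTPases, are caught by tethers such as the exocyst, and fuse when SNAREs on both membranes zip together. Alpha-SNAP then helps to take the SNARE complexes apart for reuse. In nerve terminals synaptotagmins add a calcium trigger and CAPS (Cadps) primes vesicles for release, while muscle fibres use much of the same machinery to recycle surface receptors and to bring glucose transporters to the surface. A piece of EDL holds fibres, connective tissue, vessels, and the nerve branches and terminals that serve it. In such bulk RNA, fewer cells of a type and less RNA per cell cannot be told apart.

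The deposited values are logarithms to an unstated base, so levels and differences are given in log units. If the base is 2, 1 log unit means 2-fold, and if it is e, 2.72-fold. Each array's lowest value was shared by 22 to 206 probes. This value is called the floor, it lay between 2.51 and 6.69, and a gene at the floor has only an upper bound there. Mean values over all probes were 8.19 to 8.31 on 15 arrays and 6.63 on that of control rat 6. The arrays also fell into 2 sets, rats 1 to 4 and rats 5 to 8, which the labels do not name and which were seen in the values. Deviations from the group means had a median correlation over probes of 0.07 between arrays of 1 set (56 pairs) and of -0.19 between arrays of different sets (64 pairs). Values by set or without control rat 6 stand beside the results that they change most.

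The tissue was checked against marker lists. Ckm, the creatine kinase of muscle, had a mean level of 13.01 ± 1.88 in control and 13.72 ± 0.71 in denervated EDL (SD, n = 8 each), never at the floor. Of 6 measured muscle markers, only Mylk2, a light chain kinase, passed the test on the deposited scale and fell by 1.87. After centring it was again the only one. After quantile normalisation Pgam2 (-0.93, adjusted p = 0.0172) and Cacna1s (-0.79, adjusted p = 0.0023) were lower as well, while Ckm, Tpm1 and Tpm2 did not pass. Of 12 measured Schwann cell and nerve markers 1 rose, the neurofilament Nefm, by 1.38 (adjusted p = 0.0318). Rats 1 to 4 gave 2.61 and rats 5 to 8 gave 0.14 for Nefm, and its adjusted p was 0.126 after centring, 0.296 after quantile normalisation and 0.125 by exact permutation. The mean level over these 12 was 5.47 to 7.86 on control and 6.88 to 8.13 on denervated arrays, and 7 of them were at the floor on at least 1 array. On the deposited scale all 3 measured fibroblast markers rose, S100a4 by 2.88, Bgn by 2.30 and Dcn by 1.40, with a mean level of 7.49 to 10.24 on control and 11.0 to 12.10 on denervated arrays. Dcn did not pass after centring (1.19, adjusted p = 0.0782) or quantile normalisation (0.39, adjusted p = 0.180), and gave 0.68 in rats 1 to 4 and 2.13 in rats 5 to 8. The 2 measured macrophage markers differed by 1.24 (Cd48, adjusted p = 0.0688) and 0.95 (C1qb, adjusted p = 0.138), and the 2 of endothelium and smooth muscle by 0.45 and 0.55. Their part in the results that follow was not tested.

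The main question was which trafficking genes differed after 2 months of denervation. Of the 32, 2 were called lower in denervated EDL, the vesicle membrane protein Syngr2 and the priming factor Cadps, and none was called higher. Cadps was at the floor on all 8 denervated and 4 control arrays, so its call depends on where the floors lie. Adjusted p-values under 0.05 over all 1176 probes counted as changes. The members' 0% higher stands beside 5.44% of all probes, and their 6.25% lower beside 0.85%. At an unadjusted p under 0.05, 8 members were higher (25%, against 15.1% of all probes) and 2 lower (6.25%, against 2.89%). The 8 were Snap29, Ap2a2, Ap2m1, Ap3m2, Ap3m1, Exoc7, Rab7a and Nsfl1c.

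As a group the 32 genes moved little. Their median difference was 0.14 log units against 0.22 over all probes, 20 of 32 differences were above 0, and 15 of 32 lay above the median of all probes. In none of the 32 did the ranges of the control and denervated arrays stay apart, which happened in 1.28% of all probes. The median SD per member between rats was 0.94 in control and 0.66 in denervated EDL, beside 0.99 and 0.77 over all probes. A floor value on at least 1 array was seen in 12 of 32 members (37.5%) and in 46.1% of all probes.

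Scaling between arrays moved the level of the whole comparison. Differences are given on the deposited scale, where the median of all probes is 0.22. Of the 20 above 0, 5 lay below that median, namely Vamp1 (-0.016 relative to it), Vps52 (-0.13), Syn3 (-0.16), Ap1b1 (-0.18) and Exoc2 (-0.21). Centring each array took the median of all probes from 0.22 to 0.01 and that of the members to -0.07. After centring 0 members were higher and 2 lower, the same 2 genes, where 2.98% of all probes were higher and 1.28% lower. Quantile normalisation, which gives all arrays the same distribution, took the medians to -0.01 and -0.10. It left 0 members higher and only Syngr2 lower, where 2.98% of all probes were higher and 2.3% lower. The unadjusted counts also depended on scaling. At an unadjusted p under 0.05 after centring, 5 of 32 members were higher and 3 lower, beside 127 and 82 of 1176 probes. After quantile normalisation 3 members were higher and 3 lower, beside 113 and 86 of 1176 probes. An exact permutation test of each probe over the 12870 ways to choose 8 of 16 arrays called 1 member higher, Snap29, and none lower, where 5.02% of all probes were higher and 0.68% lower. Its count of members at an unadjusted p under 0.05 was 6 higher (18.8%, against 15.1% of all probes) and 2 lower (6.25%, against 2.55%).

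**Figure D1:**
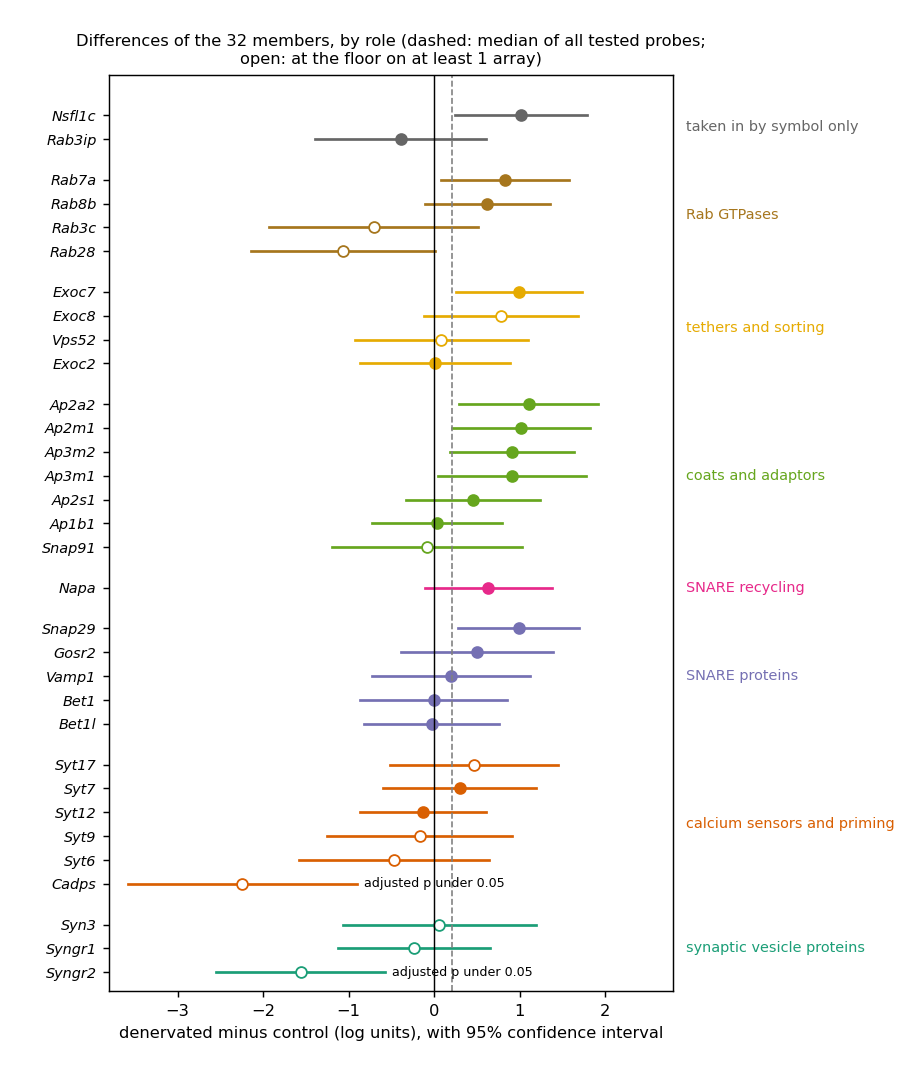
Difference between denervated and control EDL for each of the 32 genes, in log units on the horizontal axis, grouped by role. Points are differences of means (8 against 8 arrays) with 95% confidence intervals, open points mark genes at the floor on at least 1 array, and the dashed line is the median of all 1176 probes (0.22). Only the intervals of Cadps and Syngr2 belong to genes with an adjusted p under 0.05. Of the 7 adaptor genes 4 have intervals above 0, as have 15.1% of all 1176 probes.

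Syngr2 encodes synaptogyrin-2, a vesicle membrane protein that, unlike its neuronal relative synaptogyrin-1, is made in many tissues. Its promoter is shown because it is one of the 2 genes called lower. The sequence is the 250 bases before the RefSeq start on the plus strand of rat assembly GRCr8, chr10:103528379-103528628, read 5′ to 3′, with capitals on the matches to the GC box GGGCGG on either strand.
Syngr2: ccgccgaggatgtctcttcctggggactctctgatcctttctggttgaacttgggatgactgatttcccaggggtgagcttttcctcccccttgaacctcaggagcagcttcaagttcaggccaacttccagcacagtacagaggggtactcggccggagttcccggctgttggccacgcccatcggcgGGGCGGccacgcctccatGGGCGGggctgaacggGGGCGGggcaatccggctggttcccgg
It held 3 GC boxes and no match to the E-box CANNTG, the letters bound by muscle regulatory factors of the MyoD family, and 63.6% of its bases were G or C.

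Syngr2 levels ran from 7.67 to 9.43 on control arrays with a median of 8.59. On denervated arrays they ran from 5.30 to 8.67 with a median of 6.90. The denervated group split in 2: rats 1 to 4 lay between 5.30 and 6.31, below every control array, and rats 5 to 8 lay between 7.48 and 8.67. Denervated rats 6 to 8 were within the range of all controls, and denervated rat 5 was just below it. Control rats 5, 7 and 8, of the same set, lay higher than these, at 9.03, 8.95 and 9.43. Control rat 6, the array with the low mean, was at 7.67. Means were 8.56 ± 0.61 in control and 7.01 ± 1.30 in denervated EDL (SD, n = 8 each). Denervated rats 2 and 4 were at the floor, so their levels are upper bounds.

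Syngr2 fell by 1.56 log units (SE 0.49, adjusted p = 0.0438). Centring gave a difference of -1.77 (adjusted p = 0.0113) and quantile normalisation one of -1.94 (adjusted p = 0.00986). Without control rat 6 it was -1.69 (adjusted p = 0.0414). Within rats 1 to 4 it was -2.50 (adjusted p = 0.0132), and within rats 5 to 8 it was -0.62 (adjusted p = 0.519). The test of the difference between the sets did not pass (1.88 log units, adjusted p = 0.326). By exact permutation the adjusted p was 0.101. Raising all arrays to the highest floor, 6.69, left a difference of -1.15 (adjusted p = 0.0941). The call held in 8 of the 16 fits that left out 1 array. It was lost without control rat 3, 5, 7 or 8 or denervated rat 1, 2, 3 or 4, where differences stayed between -1.80 and -1.31 over all 16 fits and the adjusted p rose to at most 0.116.

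Cadps encodes CAPS, the calcium-dependent secretion activator that prepares dense-core and synaptic vesicles for fusion in nerve and endocrine cells. The 250 bases before its RefSeq start lie on the plus strand of GRCr8 at chr15:14720476-14720725. They are shown as the promoter of the other gene called lower, with capitals on the matches to the E-box CANNTG.
Cadps: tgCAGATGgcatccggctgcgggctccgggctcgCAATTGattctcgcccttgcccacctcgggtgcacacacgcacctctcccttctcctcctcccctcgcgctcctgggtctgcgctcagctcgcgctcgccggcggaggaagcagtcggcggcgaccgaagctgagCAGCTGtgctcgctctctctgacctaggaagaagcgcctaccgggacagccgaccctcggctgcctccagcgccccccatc
It held 3 E-boxes and no GC box, and 68.8% of its bases were G or C.

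Cadps was a transcript near the limit of detection. Control levels ran from 5.18 to 8.76 with a median of 6.28, and 4 control arrays, those of rats 2 to 5, were at the floor. Only control rats 1, 6, 7 and 8 gave values above the floor, at 7.71, 5.19, 7.29 and 8.76. All 8 denervated arrays were at their floor, from 2.51 to 5.93 with a median of 4.53, so every denervated level is an upper bound. Control rats 1, 7 and 8 lay above the highest of these bounds.

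The fitted difference for Cadps was -2.24 log units (SE 0.67, adjusted p = 0.0300), and its size depends on where the floors lie. The floors of denervated rats 5 to 8 were 2.51 to 4.08, below those of denervated rats 1 to 4, which were 4.99 to 5.93. Within rats 5 to 8 the difference was -3.70 (adjusted p = 0.0156) and within rats 1 to 4 it was -0.79 (adjusted p = 0.635), with an adjusted p of 0.255 for the difference between the sets. With all arrays raised to the common floor of 6.69 it was -0.46 (adjusted p = 0.341). Centring gave -2.45 (adjusted p = 0.0312), quantile normalisation gave -1.35 (adjusted p = 0.0530), and the adjusted p by exact permutation was 0.0904. Leaving out 1 array gave -2.48 to -1.93. The call was lost without control rat 1, 7 or 8 or denervated rat 6, 7 or 8, with adjusted p up to 0.0989.

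**Figure D2:**
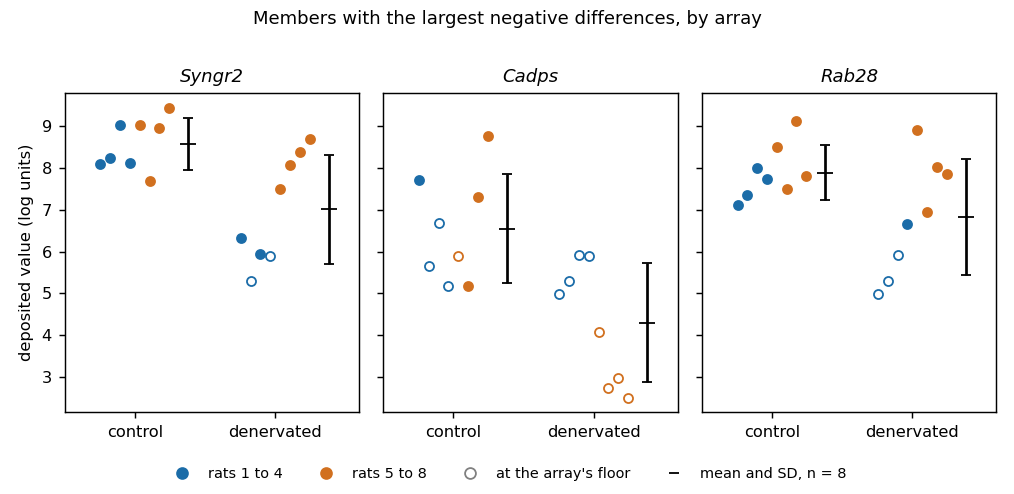
Deposited values (log units, vertical axis) of Syngr2, Cadps and Rab28 on each array, for control and denervated EDL, with rats 1 to 4 in blue and rats 5 to 8 in orange. Open points are at the array's floor and bars are mean and SD (n = 8). Denervated rats 1 to 4 lie low for Syngr2 and Rab28, and all 8 denervated points of Cadps are open.

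The other vesicle proteins of nerve terminals did not pass the test. Syngr1, neuronal synaptogyrin-1, ran from 7.06 to 9.11 (median 8.41) on control and from 5.93 to 9.14 (median 8.15) on denervated arrays, a difference of -0.23 (SE 0.44, adjusted p = 0.850). Both groups covered the same range apart from denervated rat 3, which was at the floor. Syn3, synapsin III, which ties vesicles to the cytoskeleton, ran from 5.12 to 8.14 (median 7.34) on control and from 4.99 to 8.26 (median 7.61) on denervated arrays. Denervated rats 1 and 2 were at the floor for Syn3, so their levels are upper bounds. The Syn3 difference was 0.06 (SE 0.56, adjusted p = 0.972) and turned to -0.15 after centring and -0.28 after quantile normalisation.

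Synaptotagmins are membrane proteins with paired C2 domains, and several of them bind calcium and trigger fusion. None of the 5 measured passed the test. Syt17, a relative found on Golgi and vesicle membranes, ran from 5.66 to 8.51 (median 7.51) on control and from 6.57 to 8.39 (median 7.91) on denervated arrays, a difference of 0.47 (SE 0.49, adjusted p = 0.677), or 0.23 without control rat 2. The denervated range lay inside the control range, whose lowest value, on control rat 2, was at the floor. Syt6 ran from 5.74 to 9.07 (median 7.84) on control and from 4.73 to 9.20 (median 7.65) on denervated arrays, a difference of -0.47 (SE 0.56, adjusted p = 0.713). With 1 array left out it ran from -0.76 (without control rat 7) to -0.11 (without denervated rat 7). Control rat 7 was at the floor for Syt6. Syt6 control levels lay apart by set, at 8.10 to 9.07 in rats 1 to 4 and 5.74 to 7.58 in rats 5 to 8. Syt7, which acts in lysosome exocytosis and membrane repair, Syt9 and Syt12 differed by -0.17 to 0.30.

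SNARE proteins carry out the fusion step itself, and 0 of 5 passed the test over all probes. Snap29, a SNARE of internal membranes that takes part in autophagosome fusion, had the lowest p of them. It ran from 7.67 to 9.84 (median 8.90) on control and from 9.35 to 10.51 (median 9.89) on denervated arrays. All 8 denervated arrays were above the control median and 4 were above the highest control. The difference was 0.99 (SE 0.35, adjusted p = 0.0894), nearly alike on the deposited scale in rats 1 to 4 (0.96) and rats 5 to 8 (1.02). The median of all probes was -0.03 and 0.55 in these sets, so relative to all probes Snap29 differed less in rats 5 to 8. Its adjusted p was 0.0491 by exact permutation, 0.160 after centring and 0.100 after quantile normalisation.

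The 4 other SNAREs showed smaller differences. Gosr2, membrin of the Golgi, ran from 7.0 to 11.11 (median 9.30) on control and from 8.62 to 10.63 (median 9.85) on denervated arrays, a difference of 0.50 (SE 0.44, adjusted p = 0.579). The denervated range again lay inside the control range. The difference was 0.18 without control rat 7 and 0.77 without control rat 2. Vamp1, synaptobrevin-1, the vesicle SNARE of motor nerve terminals, ran from 6.06 to 10.02 (median 9.05) on control and from 7.42 to 9.81 (median 9.19) on denervated arrays. It differed by 0.20 (SE 0.46, adjusted p = 0.879), by -0.01 after centring and by -0.42 after quantile normalisation. Bet1 and Bet1l, SNAREs of traffic between endoplasmic reticulum and Golgi, differed by -0.00449 and -0.03.

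Napa encodes alpha-SNAP, the adaptor through which the ATPase NSF takes SNARE complexes apart. Its levels ran from 7.23 to 9.70 (median 8.89) on control and from 8.55 to 9.96 (median 9.60) on denervated arrays. Of the denervated arrays 7 were above the control median and 4 above the highest control, but the difference of 0.63 (SE 0.37, adjusted p = 0.357) did not pass, and was 0.41 without control rat 6. Rats 1 to 4 gave 0.09 and rats 5 to 8 gave 1.18.

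Adaptors choose cargo and recruit clathrin, AP-2 at the plasma membrane, AP-1 at the trans-Golgi network, and AP-3 on the way to lysosomes and related organelles. Of the 7 genes of coats and adaptors 6 differences were above 0, on a scale where the median of all probes was 0.22. Their median was 0.91, the highest median of the role groups with more than 1 member, but none passed the test over all probes. After centring or quantile normalisation 5 of the 7 were above 0. The 2 AP-2 genes with the lowest p are Ap2a2, the large alpha-2 subunit that binds membrane lipid and accessory proteins, and Ap2m1, the medium subunit that reads tyrosine-based sorting signals. Both products sit in 1 complex, and their promoters are shown side by side for that reason. Each is the 250 bases before the RefSeq start in GRCr8, on the plus strand at chr1:206081679-206081928 for Ap2a2 and on the minus strand at chr11:93868481-93868730 for Ap2m1. Capitals mark matches to the GC box GGGCGG on either strand and to the E-box CANNTG.
Ap2a2: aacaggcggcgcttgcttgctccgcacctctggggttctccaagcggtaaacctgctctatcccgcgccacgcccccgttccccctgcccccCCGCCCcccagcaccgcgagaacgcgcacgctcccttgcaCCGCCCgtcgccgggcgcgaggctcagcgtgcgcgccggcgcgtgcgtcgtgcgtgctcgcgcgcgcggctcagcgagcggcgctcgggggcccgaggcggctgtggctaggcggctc
Ap2m1: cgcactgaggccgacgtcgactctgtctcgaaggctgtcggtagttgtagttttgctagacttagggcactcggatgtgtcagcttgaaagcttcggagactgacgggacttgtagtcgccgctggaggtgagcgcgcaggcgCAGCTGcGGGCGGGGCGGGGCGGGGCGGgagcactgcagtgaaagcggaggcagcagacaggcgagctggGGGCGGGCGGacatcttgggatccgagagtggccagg
Ap2a2 held 2 GC boxes and no E-box. Ap2m1 held 6 GC boxes, some of them overlapping, and 1 E-box. G or C made up 76.4% and 65.2% of their bases.

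Ap2a2 ran from 7.49 to 10.31 (median 8.96) on control and from 9.04 to 11.25 (median 10.17) on denervated arrays. All 8 denervated arrays were above the control median and 4 above the highest control. Control rat 1 was low for its set, at 7.49 where control rats 2 to 4 lay between 9.78 and 10.31. The difference was 1.11 (SE 0.41, adjusted p = 0.0975), with 1.31 in rats 1 to 4 and 0.91 in rats 5 to 8.

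Ap2m1 ran from 7.65 to 10.80 (median 9.17) on control and from 9.16 to 10.75 (median 10.18) on denervated arrays, a difference of 1.02 (SE 0.40, adjusted p = 0.131). No denervated array exceeded the highest control, that of rat 1. In rats 5 to 8 control levels were 7.65 to 8.79 and denervated levels 9.16 to 9.93, without overlap (difference 1.49, adjusted p = 0.0294). In rats 1 to 4 they were 9.55 to 10.80 and 10.43 to 10.75, a difference of 0.54 (adjusted p = 0.60). Ap2s1, the small AP-2 subunit, differed by 0.45 (adjusted p = 0.571).

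Ap3m2, the medium AP-3 subunit of nerve cells, ran from 7.50 to 10.07 (median 9.33) on control and from 9.31 to 10.85 (median 10.25) on denervated arrays. Here 5 of 8 denervated arrays lay above the highest control. The difference was 0.91 (SE 0.36, adjusted p = 0.132), and 0.66 without control rat 6, whose array held the lowest control value. Rats 1 to 4 gave 0.38 and rats 5 to 8 gave 1.44 (adjusted p = 0.0167). Ap3m1, its widely made relative, differed by 0.91 (adjusted p = 0.241), or 0.45 without control rat 6, and Ap1b1, a large AP-1 subunit, by 0.04. Snap91, which encodes the clathrin assembly protein AP180 and is no SNARE despite its symbol, differed by -0.08 and was at the floor on 2 control arrays.

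**Figure D3:**
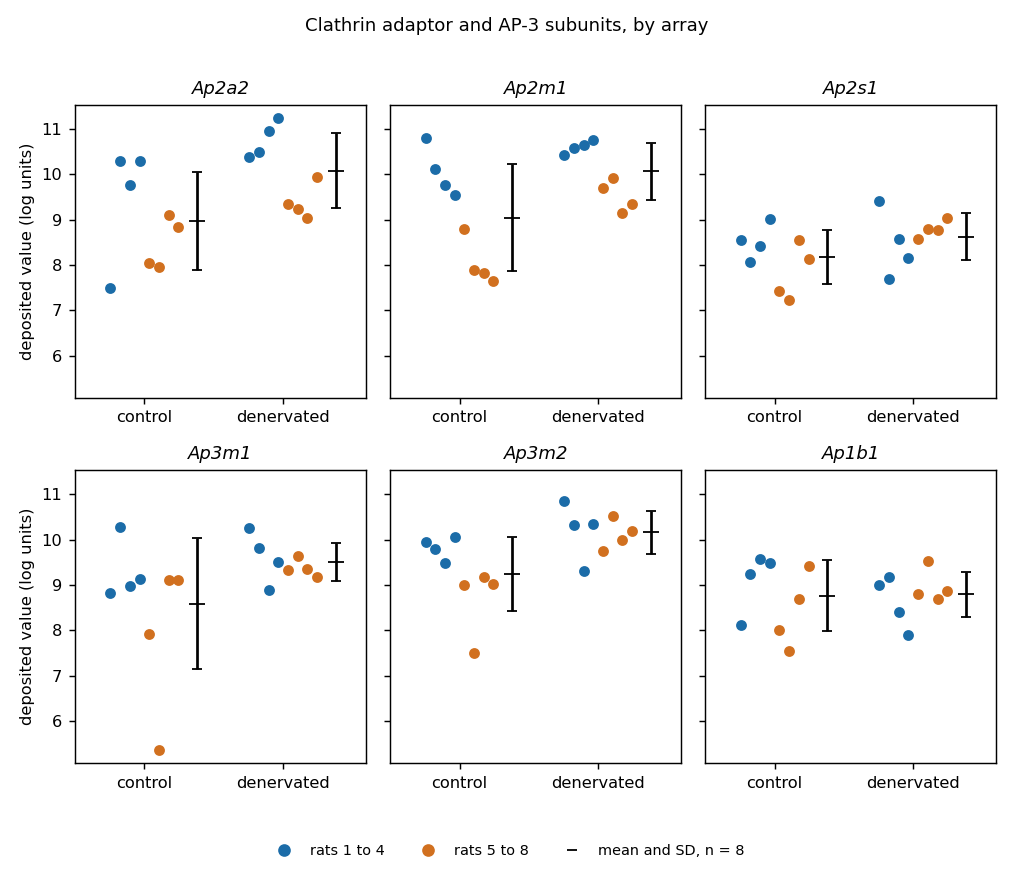
Deposited values (log units, vertical axis) of 6 adaptor subunit genes on each array of control and denervated EDL, with rats 1 to 4 in blue and rats 5 to 8 in orange. Bars are mean and SD (n = 8). For Ap2m1 the orange points lie below the blue ones in both groups, at 7.65 to 8.79 against 9.55 to 10.80 in control EDL, and in each set the denervated mean is the higher.

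Tethers hold a vesicle at its target before fusion. Exoc7, the exocyst subunit that binds lipid at the plasma membrane and takes part in glucose transporter delivery, ran from 7.97 to 10.44 (median 9.58) on control and from 9.94 to 10.73 (median 10.21) on denervated arrays. Every denervated array was above the control median and 3 were above the highest control. The difference was 0.99 (SE 0.37, adjusted p = 0.101), alike on the deposited scale in rats 1 to 4 (0.93) and rats 5 to 8 (1.05). The median of all probes was -0.03 and 0.55 in these sets, so relative to all probes Exoc7 differed less in rats 5 to 8. After quantile normalisation its difference was 0.42 (adjusted p = 0.468).

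The other tethers gave no such picture. Exoc8, another exocyst subunit, ran from 6.20 to 9.91 (median 8.24) on control and from 8.11 to 10.06 (median 8.90) on denervated arrays, a difference of 0.78 (SE 0.45, adjusted p = 0.349), or 0.50 without control rat 8. In rats 5 to 8 all 4 denervated arrays (8.54 to 8.94) were above all 4 controls (6.20 to 8.06), a difference of 1.73. Control rat 8, at 6.20, was at the floor for Exoc8. In rats 1 to 4 the difference was -0.16. The difference between the sets did not pass (1.89, adjusted p = 0.210). Vps52, of the complex that tethers vesicles from endosomes at the Golgi, ran from 6.20 to 8.28 (median 7.43) on control and from 5.93 to 9.11 (median 7.56) on denervated arrays. It differed by 0.08 (SE 0.51, adjusted p = 0.959). After centring it differed by -0.12 and after quantile normalisation by -0.09. Control rat 8 and denervated rat 3 were at the floor for Vps52. Exoc2 differed by 0.01.

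Rab GTPases switch between an active form bound to GTP and an inactive form bound to GDP, and each marks a membrane. None of the 4 passed the test, with 2 differences above and 2 below 0. Rab7a, the Rab of late endosomes, lysosomes and autophagosomes, ran from 9.02 to 11.40 (median 10.38) on control and from 10.44 to 11.68 (median 11.31) on denervated arrays. All 8 denervated arrays were above the control median and 3 above the highest control. The difference was 0.83 (SE 0.37, adjusted p = 0.208). It was 0.28 in rats 1 to 4, 1.39 in rats 5 to 8 (adjusted p = 0.00771) and -0.04 after quantile normalisation.

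Rab28, a Rab known from photoreceptor cilia and expressed in many tissues, was the lowest Rab by its difference. It ran from 7.11 to 9.12 (median 7.76) on control and from 4.99 to 8.89 (median 6.79) on denervated arrays. Denervated rats 1, 2 and 3 were at the floor, and 5 of 8 denervated arrays lay below the lowest control. The difference was -1.07 (SE 0.53, adjusted p = 0.279), -1.83 in rats 1 to 4 and -0.30 in rats 5 to 8, and -0.58 with the common floor.

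Rab8b, which directs vesicles from the Golgi to the surface, ran from 8.36 to 10.95 (median 10.04) on control and from 9.76 to 11.08 (median 10.70) on denervated arrays. It differed by 0.62 (SE 0.37, adjusted p = 0.358), by 0.41 without control rat 6 and by -0.12 after quantile normalisation. Rab3c, of the Rab3 family on secretory and synaptic vesicles, differed by -0.71 (adjusted p = 0.567), or -0.32 without denervated rat 6, with 1 control and 3 denervated arrays at the floor.

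The symbol pattern also took in 2 genes of other roles. Nsfl1c encodes p47, a cofactor of the ATPase p97 that works in Golgi reassembly. It ran from 7.50 to 10.52 (median 9.59) on control and from 9.76 to 11.42 (median 10.52) on denervated arrays, with all 8 denervated arrays above the control median and 4 above the highest control. Its difference was 1.02 (SE 0.39, adjusted p = 0.112), with 0.89 in rats 1 to 4, 1.15 in rats 5 to 8 and 0.73 without control rat 6. Rab3ip encodes Rabin3, the exchange factor that activates Rab8. It ran from 7.77 to 10.96 (median 9.86) on control and from 5.63 to 11.05 (median 9.31) on denervated arrays, a difference of -0.39 (SE 0.50, adjusted p = 0.734).

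For several of these genes the 2 sets of rats lay apart. For Ap2m1, Bet1l, Gosr2 and Nsfl1c, rats 1 to 4 lay above rats 5 to 8 without overlap in control and again in denervated EDL. That is 12.5% of the 32, where 4.42% of all probes were apart by set in both groups. Gosr2 control levels were 9.56 to 11.11 in rats 1 to 4 and 7.0 to 9.03 in rats 5 to 8, and its denervated levels were 10.30 to 10.63 and 8.62 to 9.40. Each set holds 4 control and 4 denervated rats, so the set could be fitted beside denervation. The sets were read from these same values, so the fits that use them describe the data and are no independent support.

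With the set as a block, 6 members were higher and 2 lower. That is 18.8% higher, against 9.95% of all probes, and 6.25% lower, against 1.19%. The 6 were Nsfl1c (adjusted p = 0.0163), Ap2m1 (adjusted p = 0.0199), Ap2a2 (adjusted p = 0.0219), Snap29 (adjusted p = 0.0268), Exoc7 (adjusted p = 0.0368) and Ap3m2 (adjusted p = 0.0465). The 2 were Syngr2 (adjusted p = 0.0163) and Cadps (adjusted p = 0.0137). The block was fitted on the deposited scale, on which all probes have a median difference of 0.22.

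Within each set, 4 control arrays were compared with 4 denervated ones. In rats 1 to 4 none of the members was higher, beside 1.53% of all probes, and Syngr2 was lower, beside 1.02%. The median member difference there was -0.10 and that of all probes -0.03. In rats 5 to 8, which include the low array of control rat 6, 3 members were higher (Ap2m1, Ap3m2 and Rab7a), beside 11.1% of all probes, and Cadps was lower, beside 0.68%. The medians were 0.60 for members and 0.55 for all probes. Differences were above 0 in 15 of 32 members in rats 1 to 4 and in 24 of 32 in rats 5 to 8. Over all probes they were above 0 in 570 of 1176 and in 850 of 1176, so the members moved much as all probes did. A difference between the sets passed in limma for none of the 1176 probes. At an unadjusted p under 0.05 it passed for 159 of them, 3 of those being members, namely Syngr2, Cadps and Exoc8.

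**Figure D4:**
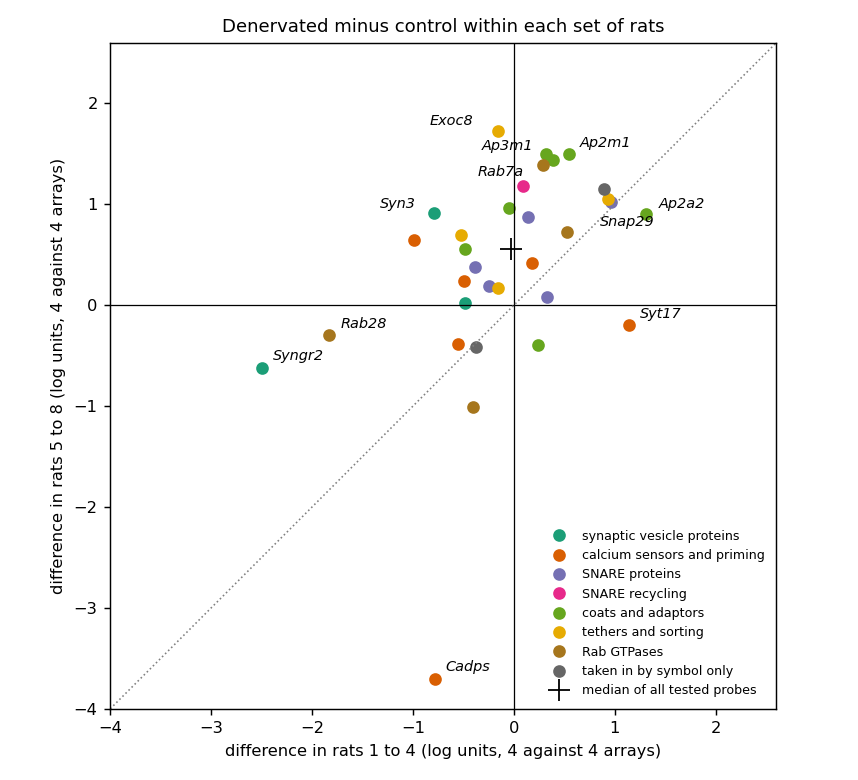
Denervated minus control in rats 1 to 4 (horizontal axis) against rats 5 to 8 (vertical axis), in log units with 4 against 4 arrays each, for the 32 genes coloured by role. The cross is the median of all 1176 probes (-0.03 and 0.55) and the dotted line marks equal differences. Syngr2 (-2.50 and -0.62) and Cadps (-0.79 and -3.70) lie far from the line on opposite sides, while Snap29 (0.96 and 1.02) lies on it.

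Other membrane trafficking genes, outside the symbol pattern, were read from a list of coat, Rab effector, endocytosis and secretion genes. Of 100 listed, 34 were measured. None passed the test in limma. At an unadjusted p under 0.05, 6 were higher (17.6%, against 15.1% of all probes) and 1 lower (2.94%, against 2.89%), and the exact permutation test called 1 higher, Rabggtb, the catalytic subunit of the enzyme that attaches lipid to Rabs (difference 0.73, adjusted p = 0.0410). Their differences ran from -1.14 to 1.19 with a median of 0.30, against 0.22 over all probes. Cltc, the clathrin heavy chain that AP-2 recruits, was 9.09 ± 1.17 in control and 10.28 ± 0.37 in denervated EDL (SD, n = 8 each), a difference of 1.19 (SE 0.39, adjusted p = 0.0548). Rabac1, which binds Rabs that carry lipid, differed by 1.12 (adjusted p = 0.0688), and Rph3a, an effector of Rab3, by 1.16 (adjusted p = 0.0906). In rats 1 to 4 and rats 5 to 8 Cltc gave 0.34 and 2.04, Rabac1 0.67 and 1.56, and Rph3a 0.49 and 1.84. Neither Cltc, Rabac1 nor Rph3a passed after centring, after quantile normalisation or by exact permutation. With the set as a block, 4 of the 34 were higher (11.8%, against 9.95% of all probes), namely Cltc, Rabac1, Rph3a and Tmed2.

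Promoters of the same length were found in the RefSeq table for 24 of the 32 genes and for 27457 genes or starts in all. Their median share of G and C was 63.2%, against 52% over all. The GC box GGGCGG was in 66.7% of the members' promoters and 32.4% of all, and the E-box CANNTG in 41.7% and 65.2%. The CCAAT box was in 29.2% and 34.3%. The cyclic AMP response element TGACGTCA was in 8.33%, those of Napa and Vamp1, and in 1.70% of all. All 4 were searched on both strands. These are matches of letters that depend on base composition, and no binding was measured.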

How the data were processed

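The unit of the deposited table, 1185 probes by 16 arrays, was taken as a log-scale score. Per the labels' protocols, Clontech Rat Atlas membranes were hybridised with labelled cDNA and scanned by phosphorimager, Array Vision software read the spots, and normalisation used linear regression. The log base and background correction are not stated there. The 9 reference probes, on another scale, were left out. Of 1176 tested probes, 1106 had 1 gene in the platform annotation, 68 had none and 2 had several. All 32 members' gene IDs and symbols matched the RefSeq table of GRCr8, which also gave the promoters. Probes may also bind transcripts of close relatives.

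Groups came from the sample titles. Values were compared as deposited with limma 3.58.1 in R 4.3.3 (lmFit, eBayes with trend, two-sided). Adjusted p-values are limma's with Benjamini-Hochberg adjustment over all tested probes, or the exact permutation test where named, whose smallest p is 0.000155. The fits were tested on simulated data with independent normal noise. These data held no floors, no low array and no sets of rats, so the test does not cover those features. No pair of arrays shared more than 0.0850% of its values. The number of arrays limits the precision.

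The members and lists were chosen with earlier results of these data known. Full values are given for members past the threshold as deposited, after centring or after quantile normalisation, and for the 3 members of each role with the lowest p, 21 in all. The other 11 are given by difference. Alternatives were centring, quantile normalisation, a filter on floor values (above the floor on at least 8 arrays), the reference probes, a common floor, blocks by rat number or set, each set alone, exact permutation and each array left out. Both scalings without control rat 6 and the test between sets were chosen after seeing the data. Whether equal rat numbers mark the same animal is not stated. Deviations of same-numbered arrays correlated at 0.0592 to 0.193, with 1 pair under 0.1. The median of 0.07 between arrays of 1 set is no like comparator. Its 56 pairs include the same-numbered ones and pairs within 1 group, whose deviations from a shared mean lean negative. These correlations therefore do not decide whether the numbers mark pairs. The main fit did not take the numbers as pairs, and rat number as a block was fitted as an alternative. Figures used matplotlib 3.10.9.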

Additional observations from a re-analysis of the deposited data

Results flagged for a closer look

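Among 42 groups of 8 arrays, those of the 21 genes described in full, 5 held a single array far from the others by Dixon's criterion, where chance gives about 1 in 20. Syngr1 was 5.93 on denervated rat 3, its floor, where the others lay between 7.74 and 9.14. Syt17 was 6.57 on denervated rat 1, where the others lay between 7.58 and 8.39. Ap3m2 was 7.50 on control rat 6, where the others lay between 9.01 and 10.07. Nsfl1c was 7.50 on the same array, where the others lay between 9.16 and 10.52. Rab7a was 10.44 on denervated rat 3, where the others lay between 11.13 and 11.68. Control rat 6 is the array with the low mean over all probes.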

How the results depend on the processing

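Members higher numbered 0 as deposited, 6 with the set block, 4 with rat number as a block (Ap2a2, Ap2m1, Exoc7 and Nsfl1c), 3 within rats 5 to 8, 1 by exact permutation, and 0 to 3 with 1 array left out. The 3 came without control rat 4 (Ap2a2, Exoc7 and Snap29). Members lower numbered 2, 1 after quantile normalisation (also without control rat 6), 1 after the filter on floor values, which removed Cadps, 1 within either set, 0 by permutation or with the common floor, and 0 to 2 with 1 array left out. They were 0 without control rat 7 or 8. Quantile normalisation with the replicate block called Cadps, Syngr2 and Rab28 lower (Rab28 -1.50, adjusted p = 0.0456). The members' median difference was 0.60 within rats 5 to 8 and 0.06 to 0.28 with 1 array left out.

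All probes higher numbered 64 as deposited, 35 after centring, 35 after quantile normalisation, 30 and 33 after these without control rat 6, 117 with the set block, 18 within rats 1 to 4 and 131 within rats 5 to 8. The replicate block gave 96 higher and 17 lower. Of 8 control arrays, 2 correlated best with the denervated array of their own number. All probes lower numbered 10, 27 after quantile normalisation (25 without control rat 6), 43 with that and the replicate block, and 4 with the common floor. With 1 array left out, 35 (without denervated rat 1) to 86 (without control rat 4) were higher and 5 (without control rat 7) to 14 (without control rat 6) lower.

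Several differences changed sign. Of these genes only Rab7a passed the test in any of the fits, within rats 5 to 8. Quantile normalisation, with or without the replicate block, gave -0.28 for Syn3, -0.42 for Vamp1, -0.087 for Vps52, -0.037 for Rab7a and -0.12 for Rab8b. Without control rat 6 it gave -0.33 for Syn3, -0.34 for Vamp1, -0.013 for Rab7a and -0.15 for Rab8b. Centring gave -0.15 for Syn3 (-0.25 without control rat 6), -0.0087 for Vamp1 and -0.12 for Vps52. Within rats 1 to 4 Syn3 was -0.79, Exoc8 -0.16 and Vps52 -0.53, and within rats 5 to 8 Syngr1 was 0.023 and Syt17 -0.20. With 1 array left out, Rab3ip ran from -0.65 to 0.12, Syn3 from -0.21 to 0.35, Syngr1 from -0.41 to 0.072, Vamp1 from -0.17 to 0.41 and Vps52 from -0.15 to 0.30. The causes were not tested. Over the 21 genes and all alternatives, 529 of the differences kept direction and side of the threshold, 21 passed it anew, 22 no longer passed and 36 changed sign. Floors limit what can be said of the 12 members at the floor on at least 1 array, Cadps, Rab28, Rab3c, Syngr2 and Syn3 among them.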
